A study of Homo sapiens with 23 samples.

Results

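The 10 transcripts described here encode immune checkpoint ligands and enzymes: CD274 (PD-L1), PDCD1LG2 (PD-L2), VTCN1 (B7-H4), CD276 (B7-H3), PVR (CD155), NECTIN2 (CD112), LGALS9 (galectin-9), CD47, IDO1 and NT5E (CD73). They were chosen by name and found by NCBI Gene ID, and all 10 of 10 were among the 21658 genes of the expression table. RNA-seq was performed on 23 libraries from 4 established human ovarian cancer cell lines, Kuramochi, OVSAHO, OV-90 and EFO-21. Each line was sequenced as its parental form and as a prexasertib resistant form derived by long-term drug concentration escalation, with 3 libraries per group except parental OV-90, which had 2. Prexasertib inhibits the replication checkpoint kinase CHK1. The labels name 1 resistant form per line, so a change was measured in that form and not in independent selections. The comparisons address how these ligands differ among the lines at baseline and how they differ in each resistant form from its own parent.

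Checkpoint ligands are surface or secreted molecules with which a tumour cell dampens immune attack. CD274 and PDCD1LG2 bind PD-1 on T cells, PVR and NECTIN2 bind the inhibitory receptor TIGIT and the activating receptor CD226, LGALS9 binds TIM-3, and CD47 binds SIRPA on macrophages and restrains phagocytosis. IDO1 turns tryptophan into kynurenine, which engages the aryl hydrocarbon receptor AHR, and NT5E turns extracellular AMP into adenosine, which engages adenosine receptors on lymphocytes. Interferon gamma, signalling through JAK and STAT proteins, is a known inducer of CD274 and IDO1. The samples are labelled as cell lines, and the values are transcript levels that say nothing of protein on the cell surface. In such bulk samples, fewer cells that express a gene and less RNA per cell cannot be told apart.

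CD274 and PDCD1LG2 lie next to each other on the plus strand of chromosome 9 in GRCh37, at chr9:5450503-5470566 and chr9:5510531-5571282. VTCN1 (chr1:117686209-117753582, minus strand), CD276 (chr15:73976307-74006855, plus), LGALS9 (chr17:25956824-25976586, plus), CD47 (chr3:107761938-107810709, minus) and NT5E (chr6:86159302-86205509, plus) lie on separate chromosomes. PVR (chr19:45147098-45169430, plus) and NECTIN2 (chr19:45349432-45392480, plus) share chromosome 19. Each value summarises the exons the authors kept for the gene, with no split between coding and untranslated parts.

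The 250 bases before the RefSeq gene start are shown for 3 ligands on which the results turn: CD274, which rose with its neighbour in Kuramochi, NT5E, which was called higher in 3 lines, and CD47, which was lower in all 4 resistant forms but under 2-fold in each. They are written 5′ to 3′ on the gene's strand from GRCh38.p14, at chr9:5450292-5450541 for CD274, chr6:85449833-85450082 for NT5E and chr3:108091032-108091281 (minus strand) for CD47. Capitals mark matches on either strand to the motifs searched: the interferon-stimulated response element core (GAAANNGAAA), the GAS element bound by STAT proteins (TTCNNNGAA), the AP-1 site (TGANTCA) and the ACGTG form of the hypoxia response core. The GCGTG form of that core was not searched.
CD274: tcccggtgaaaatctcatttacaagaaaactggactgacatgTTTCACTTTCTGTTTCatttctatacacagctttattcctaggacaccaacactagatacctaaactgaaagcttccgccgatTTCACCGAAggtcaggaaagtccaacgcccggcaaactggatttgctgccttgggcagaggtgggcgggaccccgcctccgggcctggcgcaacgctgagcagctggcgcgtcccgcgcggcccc
NT5E: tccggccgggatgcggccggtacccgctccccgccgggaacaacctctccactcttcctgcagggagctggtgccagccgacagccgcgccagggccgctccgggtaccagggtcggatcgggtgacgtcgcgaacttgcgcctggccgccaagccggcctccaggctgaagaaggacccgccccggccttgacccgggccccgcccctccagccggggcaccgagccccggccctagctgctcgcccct
CD47: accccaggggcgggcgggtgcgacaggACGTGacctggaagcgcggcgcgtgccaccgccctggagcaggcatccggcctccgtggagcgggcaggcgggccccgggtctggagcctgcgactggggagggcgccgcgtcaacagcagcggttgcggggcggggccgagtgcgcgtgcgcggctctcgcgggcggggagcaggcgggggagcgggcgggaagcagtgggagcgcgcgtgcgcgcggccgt

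Of the 10 members, 8 matched the promoter table, and PDCD1LG2 and IDO1 did not. The CD274 stretch held 2 overlapping response element cores, which start 208 and 202 bases before the gene start, and 1 GAS element starting 125 bases before it. Among 27305 promoters of the same length, 3.07% held the response element core and 6.78% the GAS element. The CD47 stretch held 1 ACGTG form of the hypoxia response core starting 223 bases before the gene start, a motif found in 18.7% of promoters. No AP-1 match, which 6.6% of promoters held, was seen in any of the 8, and the NT5E stretch held none of the 4 motifs. A match describes letters in the window only.

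All values below are deposited log2 expression values, quantile normalized by the authors. They are not scaled to gene length, so levels are compared between libraries for a gene and never between genes. A value at or below the 10th percentile of its library, which lay between 1.70 and 1.87, is called the bottom. A change whose parental or resistant mean is at or below 1.87 is not a measured fold change. Among the genes named below this holds, for example, for GLDC and ITGAM in Kuramochi and IL33 and B3GNT3 in OVSAHO. It also holds for CD3D and LYZ in EFO-21. Of the 10 ligands, 7 were above the bottom in all 23 libraries, while IDO1 lay at the bottom in 14, PDCD1LG2 in 10 and VTCN1 in 8. Pearson correlations between libraries of a group, taken across genes, ranged from 0.952 to 0.988 over 22 pairs, and the lowest was the parental OV-90 pair. The keratin KRT8, an epithelial marker, lay between 8.67 and 11.5 in all 23 libraries. In OV-90 the Mullerian markers PAX8 and WT1 lay between 1.48 and 2.42, whereas the leukocyte and stromal markers LYZ and LUM lay between 11.7 and 13.2. PAX8 lay between 8.42 and 9.50 in the other 3 lines. WT1 lay between 5.65 and 8.30 in Kuramochi and OVSAHO, but at the bottom in every EFO-21 library, between 0.005 and 1.21.

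**Figure D1:**
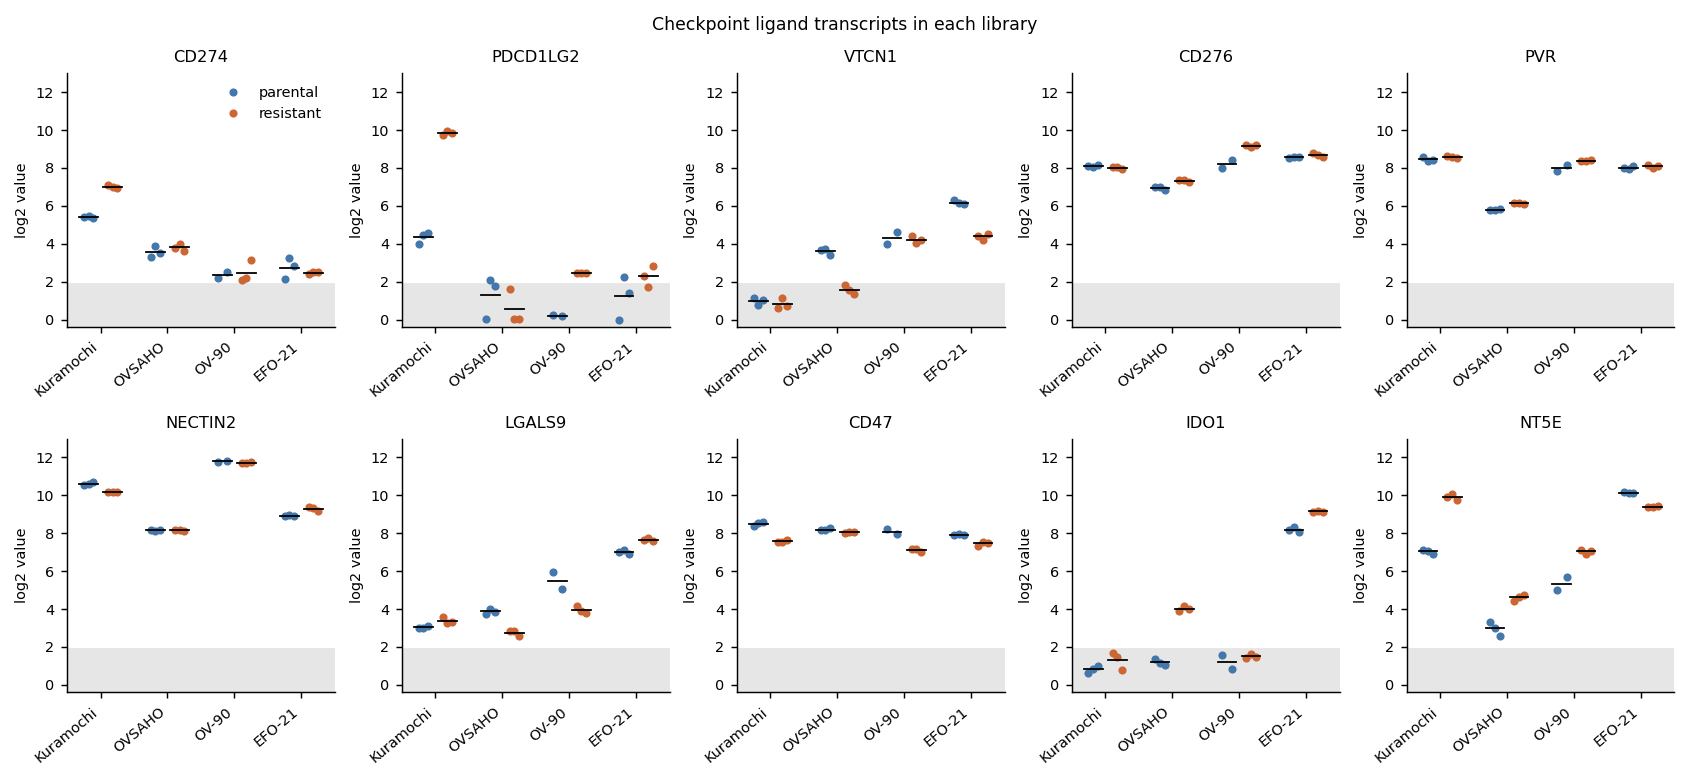
Deposited log2 value (vertical axes) of each of the 10 ligands in each of the 23 libraries, by cell line, with parental libraries in blue, resistant libraries in orange and black bars for group means. The grey band ends at 1.87, the highest 10th percentile of any library, and PDCD1LG2 in Kuramochi shows the largest step, from 4.33 to 9.85.

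At baseline the ligands differed among the lines, and no line was highest or lowest for all of them. EFO-21 had the highest parental mean for IDO1, VTCN1, CD276, LGALS9 and NT5E, Kuramochi for CD274, PDCD1LG2, PVR and CD47, and OV-90 for NECTIN2. Of 60 pairwise differences (10 ligands, 6 pairs of lines), 37 were called, that is, passed a limma adjusted p of 0.05 and a 2-fold difference. Per pair, 7 ligands were called between Kuramochi and OVSAHO (37.6% of all genes were called), 6 between Kuramochi and OV-90 (47%), 7 between Kuramochi and EFO-21 (41.3%), 6 between OVSAHO and OV-90 (48.1%), 6 between OVSAHO and EFO-21 (44.2%) and 5 between OV-90 and EFO-21 (50.2%). With 10 ligands and such shares of all genes, these counts are a description and do not set the ligands apart from other genes. Single library names below (2 to 24) are the numbers in the column names and carry no order. Where groups of libraries are said below not to overlap, the share of all genes that did the same was not counted.

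Among the T cell ligands, CD274 stood highest in parental Kuramochi at 5.42, 5.48 and 5.33. It read 3.32, 3.87 and 3.52 in OVSAHO, 2.14, 3.25 and 2.84 in EFO-21, and 2.21 and 2.49 in OV-90. Kuramochi did not overlap any other line and exceeded OVSAHO by 1.84 ± 0.28 (SE, adjusted p = 0.000249). OVSAHO exceeded EFO-21 by 0.83 (adjusted p = 0.0247), which is under 2-fold, and OV-90 and EFO-21 did not separate (difference -0.39, adjusted p = 0.288).

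PDCD1LG2 was likewise above the bottom in every parental library of Kuramochi alone, at 3.96, 4.47 and 4.56. In the other parental lines 6 of 8 libraries were at the bottom, with values from 0.00 to 2.25. Those low values recur among many genes of the same library and were carried by 1289 and 1170 genes in the OV-90 pair. The value of PDCD1LG2 rests on 1 exon and that of CD274 on 4, whereas the other ligands rest on 11 to 39.

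VTCN1, a B7 family ligand known from ovarian carcinoma, ran from 6.31, 6.13 and 6.07 in parental EFO-21 down to 1.13, 0.79 and 1.03 in parental Kuramochi, which is the bottom. OV-90 (4.0 and 4.60) and OVSAHO (3.69, 3.70 and 3.39) lay between and differed by 0.70 (adjusted p = 0.0227), under 2-fold. CD276, its relative, was lower in OVSAHO (mean 6.93 ± 0.08, SD, n = 3) than in the other lines, whose means lay between 8.12 and 8.57. The 3 higher lines differed among themselves by less than 2-fold.

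PVR followed CD276 in one respect, since parental OVSAHO was again the lowest, at 5.78, 5.76 and 5.82. The other lines lay between 7.82 and 8.57, and OVSAHO fell below each of them by 2.19 to 2.67 (adjusted p at most 5.64e-08). NECTIN2 was 11.80 ± 0.03 in OV-90 (SD, n = 2), 10.61 ± 0.07 in Kuramochi, 8.94 ± 0.04 in EFO-21 and 8.16 ± 0.03 in OVSAHO (SD, n = 3 each), and each neighbouring pair differed, the last by 0.77, under 2-fold.

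LGALS9 was highest in parental EFO-21 at 7.02, 7.14 and 6.92, followed by OV-90 at 5.96 and 5.03. OVSAHO (3.76, 4.03 and 3.85) and Kuramochi (3.02, 2.98 and 3.09) were lower and differed from each other by 0.85 (adjusted p = 0.00649), under 2-fold. LGALS9 has near-identical gene copies, LGALS9B and LGALS9C, and reads may be shared among them, so its values are uncertain to that extent.

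CD47 was the most even ligand. Its parental means ran only from 7.93 in EFO-21 to 8.49 in Kuramochi, a span of 0.56 against a median span of 2.01 over all genes, and none of its 6 differences reached 2-fold, although 4 passed the adjusted p. For the enzymes the spread was the widest. IDO1 was at 8.16, 8.34 and 8.05 in EFO-21 and at the bottom in all 8 parental libraries of the other lines. NT5E read 10.18, 10.14 and 10.10 in EFO-21, 7.14, 7.08 and 6.92 in Kuramochi, 5.0 and 5.68 in OV-90 and 3.34, 3.01 and 2.60 in OVSAHO, and it was the only one of the 10 ligands called in all 6 pairs.

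Split over all 23 libraries, differences between lines held 84.8% to 98.7% of the sum of squares for 8 of the ligands, against a median of 77.7% over all genes. PDCD1LG2 (70.2%) and CD47 (34.1%) were the exceptions. For CD47 the larger part, 63.3%, lay between parental and resistant libraries within a line, where the median gene had 14.3%.

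In the resistant forms, 11 of 40 changes were called (10 ligands in 4 lines), and these fell on 6 ligands. NT5E was called higher in 3 lines, PDCD1LG2 higher in 2, CD274 and IDO1 higher in 1 each, and VTCN1 and LGALS9 lower in 2 each. CD276, PVR, NECTIN2 and CD47 were called in none, though each had smaller changes that passed the adjusted p. Kuramochi had 3 ligands called higher and 0 lower, against 11.8% and 10.6% of all genes. OVSAHO had 2 higher and 2 lower, against 3.93% and 3.83%. OV-90 had 2 higher and 1 lower, against 9.5% and 6.56%, and EFO-21 had 0 higher and 1 lower, against 7.11% and 7.15%. By unadjusted limma p under 0.05 alone, Kuramochi had 2 ligands lower and EFO-21 had 3 higher. With 10 ligands, counts of this size are a description and do not set the ligands apart from other genes. Kuramochi and OVSAHO kept 3 and 4 called ligands without any 1 library. In OV-90 the count fell to 1 without library 13, 14 or 15, all resistant, and rose to 5 without parental library 3, and genes of the related lists described below went from 24 called to between 2 and 4 without 1 of those resistant libraries. In EFO-21 it was 2 without library 11.

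**Figure D2:**
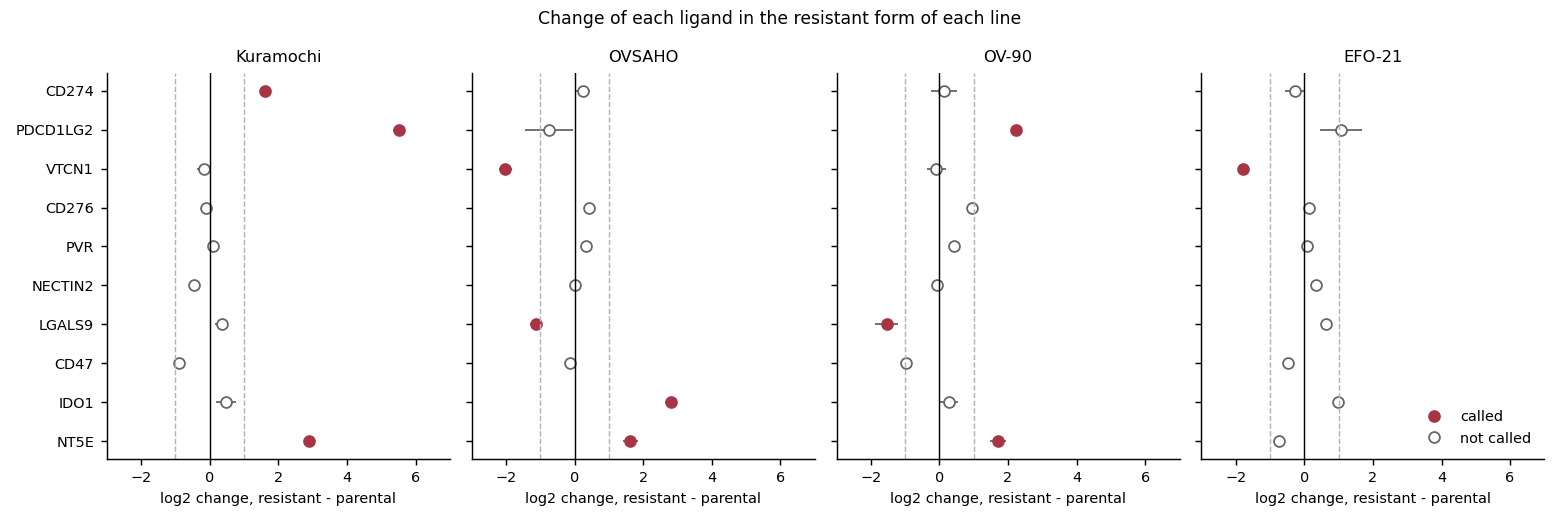
Log2 change of each ligand from parental to resistant in each line (horizontal axes), with bars for the standard error of the limma fit, dashed lines at 2-fold, filled points for called changes and open points for the rest. Most points lie within the dashed lines, and PDCD1LG2 in Kuramochi lies farthest out at 5.52.

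CD274 and PDCD1LG2 rose together in resistant Kuramochi. CD274 went from 5.42, 5.48 and 5.33 to 7.08, 7.01 and 6.96, a rise of 1.60 ± 0.10 (SE) or 3.04-fold (adjusted p = 7.47e-05). PDCD1LG2 went from 3.96, 4.47 and 4.56 to 9.73, 9.95 and 9.86, a rise of 5.52 ± 0.17 or 45.8-fold (adjusted p = 8.61e-06). The parental values of PDCD1LG2 were each carried by 55 to 78 genes of their library and the resistant values by 3, so the size of its rise starts from coarse low values of a single exon. The groups did not overlap for either gene, and PDCD1LG2 ranked 92 of the 21658 genes by size of change in this line. The rise of CD274 in Kuramochi exceeded the mean change of the other 3 lines by 1.57 ± 0.31 (adjusted p = 0.000295), and that of PDCD1LG2 did so by 4.67 ± 0.64 (adjusted p = 6.23e-06).

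Elsewhere CD274 did not pass the test. It read 3.80, 3.98 and 3.62 in resistant OVSAHO, 2.11, 2.19 and 3.14 in resistant OV-90 and 2.38, 2.50 and 2.52 in resistant EFO-21, each overlapping its parent. PDCD1LG2 was called higher in OV-90, from 0.22 and 0.18 to 2.43, 2.44 and 2.44, but each of the resistant values was carried by 239 to 299 genes of its library. Both parental libraries were at the bottom, so the difference of 2.24 is not a measured fold change, and with values raised to the 10th percentile it was 0.62 and no longer 2-fold. In OVSAHO and EFO-21 PDCD1LG2 overlapped between the forms, with adjusted p of 0.459 and 0.201.

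Of 17 measured neighbours of the pair on chromosome 9, within about 1270 kb, 14 were higher in resistant Kuramochi. The median change of the 17 was 0.53, against -0.02 over all genes. Among them 2 were called higher and 1 lower, against 11.8% and 10.6% of all genes. JAK2, a kinase gene of the interferon pathway that starts 466 kb before CD274, rose by 1.61 ± 0.15 (adjusted p = 0.000355), close to CD274 itself. IL33, a cytokine gene, rose by 1.81, and GLDC, a glycine cleavage enzyme gene, fell by 4.47. The nearest measured gene, PLGRKT, rose by 0.70 (adjusted p = 0.00595), under 2-fold, and RIC1 on the far side of PDCD1LG2 gave 0.68 (adjusted p = 0.0575). In OVSAHO 7 of the 17 neighbours were higher, with IL33 (1.58) called higher and GLDC (-1.42) and RLN2 (-1.28) lower. In OV-90 10 of 17 were higher and RIC1 was called (1.20), and in EFO-21 10 of 17 were higher, with IL33 (2.07) and RLN2 (1.20) called. All-gene shares called higher and lower were 3.93% and 3.83% in OVSAHO, 9.5% and 6.56% in OV-90, and 7.11% and 7.15% in EFO-21.

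**Figure D3:**
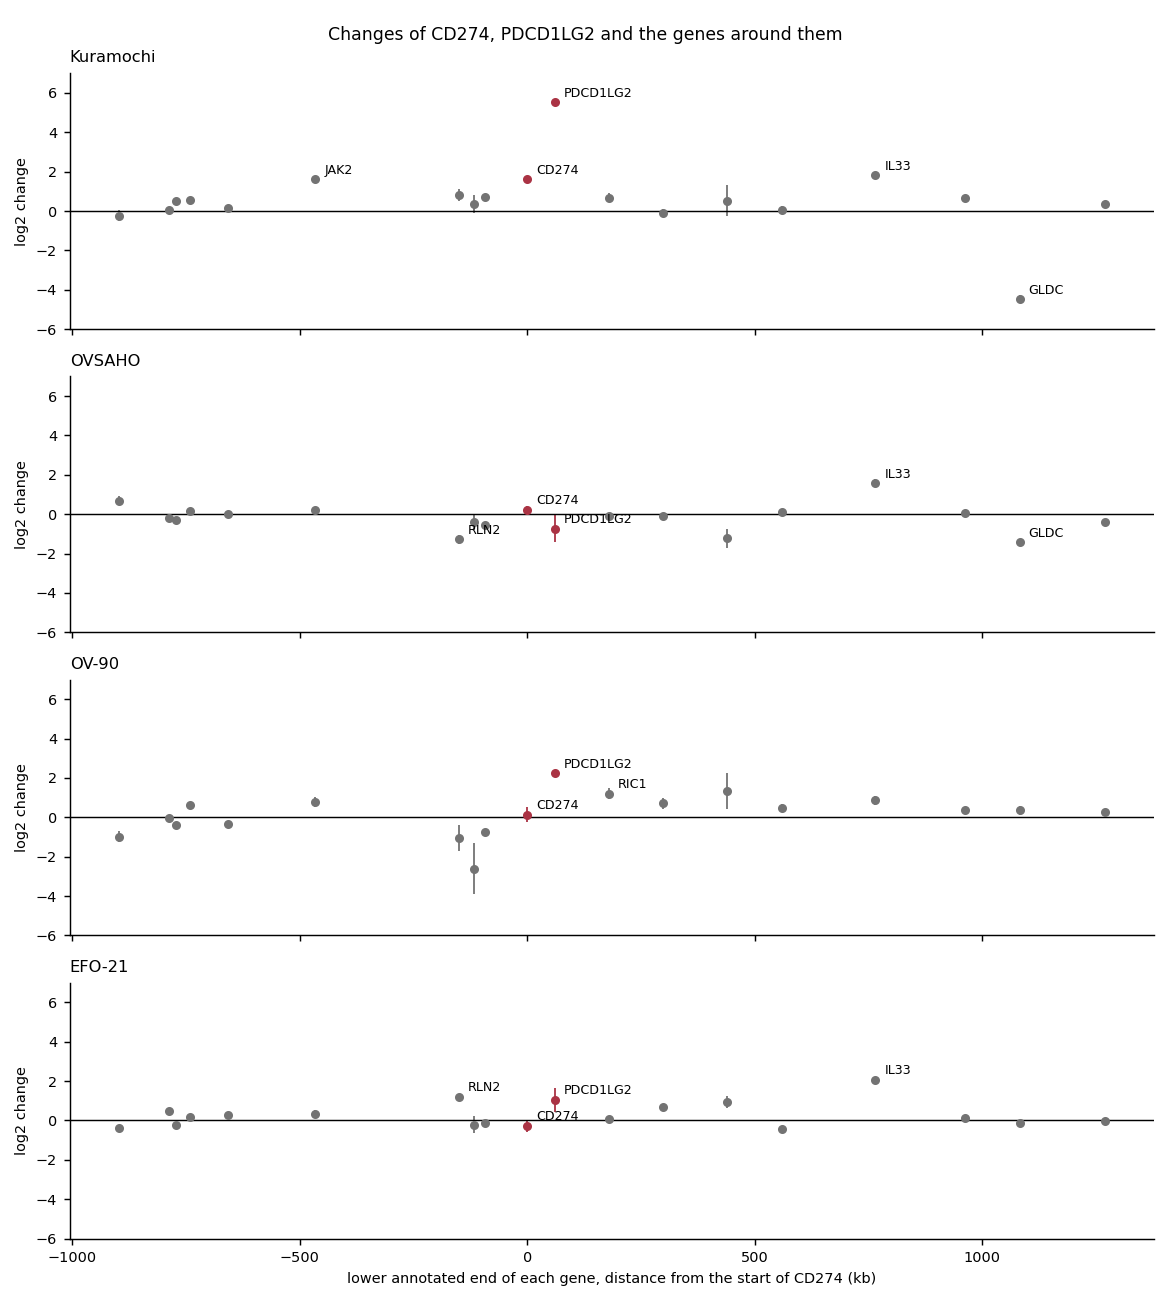
Log2 change from parental to resistant (vertical axes, bars for standard error) of CD274 and PDCD1LG2 in red and of 17 neighbouring genes in grey, placed by the distance of each gene's lower annotated end from the start of CD274 in kb, with 1 panel per line. Called neighbours are named, and in Kuramochi PDCD1LG2 at 5.52 stands above CD274 at 1.60 and JAK2 at 1.61.

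Interferon and JAK-STAT genes moved in both directions in Kuramochi. Of 26 measured, 3 were called higher and 2 lower, against 11.8% and 10.6% of all genes. Their median change was 0.16, against -0.02 over all genes. GBP2, an interferon-induced GTPase, rose by 2.00 (adjusted p = 3.1e-05) with JAK2 and IRF2 (1.06), whereas CXCL10, an interferon-induced chemokine, fell by 2.41 to the bottom, and IFIT1, another interferon-induced gene, fell by 1.04. IRF1, an interferon regulatory factor, gave 0.22, under 2-fold. In OVSAHO GBP2 fell by 2.16 and was the only one of the 26 called, and in OV-90 it fell by 1.09, again alone. EFO-21 had 2 called higher, MX1 (1.43) and ISG15 (1.10), both interferon-stimulated. It had 4 lower, among them NFKB1 (-1.28) and IFNGR1 (-1.15), a chain of the interferon gamma receptor. Shares of all genes called higher and lower were 3.93% and 3.83% in OVSAHO, 9.5% and 6.56% in OV-90, and 7.11% and 7.15% in EFO-21. With so few genes, these counts are a description.

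Of 11 genes known to act on PD-L1 or CD47 protein or to shed surface ligands, OV-90 had 2 called higher and 0 lower. Kuramochi and OVSAHO had 0 higher and 1 lower each. Over all genes, 9.5% and 6.56% were called higher and lower in OV-90, 11.8% and 10.6% in Kuramochi. The shares were 3.93% and 3.83% in OVSAHO, and 7.11% and 7.15% in EFO-21. CMTM6, which keeps PD-L1 at the cell surface, rose by 2.28 ± 0.34 in OV-90 (adjusted p = 0.017), and ADAM10, a sheddase, rose there by 1.20. B3GNT3, which glycosylates PD-L1, fell by 2.33 in Kuramochi and by 3.33 in OVSAHO. In EFO-21 none of the 11 was called by limma, and 8 had an unadjusted p under 0.05 (6 higher and 2 lower).

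VTCN1 fell in OVSAHO and EFO-21. In OVSAHO it went from 3.69, 3.70 and 3.39 to 1.83, 1.56 and 1.34 (limma adjusted p = 0.00121), and 2 of the 3 resistant libraries were at the bottom. With a resistant mean of 1.58, the difference of -2.02 ± 0.20 is not a measured fold change. In EFO-21 it went from 6.31, 6.13 and 6.07 to 4.42, 4.20 and 4.53, 3.45-fold lower (adjusted p = 0.00022). The forms did not overlap in either line. In OV-90 VTCN1 stayed between 4.0 and 4.60 in both forms, and in Kuramochi it was at the bottom throughout.

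CD276 rose in OV-90 by 0.94 ± 0.14 (adjusted p = 0.0174), from 8.02 and 8.44 to 9.19, 9.11 and 9.20, and in OVSAHO by 0.41 ± 0.07 (adjusted p = 0.00716), both under 2-fold. Its change in OV-90 exceeded the mean of the other lines by 0.80 ± 0.11 (adjusted p = 1.2e-05). Without parental library 3 the change in OV-90 was 1.15, past 2-fold. Over the single omissions there it ran from 0.73 to 1.15, and its adjusted p did not pass in every one. PVR rose by 0.34 in OVSAHO (adjusted p = 0.0135) and by 0.41 in OV-90 (adjusted p = 0.0489), with 0.10 and 0.08 in Kuramochi and EFO-21. Neither of the PVR rises in OVSAHO and OV-90 passed the adjusted p in every single omission. NECTIN2 moved in opposite directions, falling by 0.45 ± 0.06 in Kuramochi (adjusted p = 0.00101) and rising by 0.35 ± 0.06 in EFO-21 (adjusted p = 0.00519). In OVSAHO it gave 0.00 ± 0.03 and in OV-90 -0.08 ± 0.05.

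LGALS9 fell in OVSAHO, from 3.76, 4.03 and 3.85 to 2.82, 2.87 and 2.56, by 1.13 ± 0.17 (adjusted p = 0.00476). In OV-90 it fell by 1.54 ± 0.34 (adjusted p = 0.0302), from 5.96 and 5.03 to 4.14, 3.90 and 3.81. It rose under 2-fold in EFO-21, by 0.64 ± 0.07 (adjusted p = 0.000977), and gave 0.35 in Kuramochi (adjusted p = 0.169). No pair of forms overlapped, not even in Kuramochi, where the change did not pass the adjusted p. The OV-90 fall lost its call when any of the 3 resistant libraries was left out (adjusted p from 0.095 to 0.109) and under library weights (adjusted p = 0.0757).

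The copies of LGALS9 moved as well. LGALS9B and LGALS9C rose in Kuramochi by 2.26 and 3.39, from parental values between 0.00 and 1.97, at or near the bottom, and LGALS9B in OV-90 went from 3.65 and 3.49 to 0.06, 0.07 and 0.06. In OVSAHO LGALS9B was listed near 0 in all 6 libraries. How reads are divided among the copies was not tested.

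Leukocytes also express LGALS9, and leukocyte markers were lower in resistant OVSAHO. PTPRC (CD45) read 3.15, 4.09 and 3.05 in the parental and 0.53, 0.41 and 0.70 in the resistant libraries, and LYZ fell by 3.56. Of 10 measured leukocyte markers, 4 were called lower and 0 higher in that line (1 higher by unadjusted limma p under 0.05), against 3.83% and 3.93% of all genes. Their summed level was between 9.09 and 9.38 in parental and between 9.05 and 9.20 in resistant OVSAHO on the log2 scale, carried largely by NCAM1, and CD3D was near 0 in the resistant libraries. In OV-90, the parental library with the higher LGALS9 value (5.96) also had the higher PTPRC (4.29 against 3.24) and CD3D (6.22 against 4.52). Its resistant libraries read 2.59, 2.58 and 2.63 for PTPRC and 4.42, 5.33 and 4.92 for CD3D. The summed level was 11.91 and 12.46 in the parental and between 12.50 and 12.55 in the resistant libraries. It was carried largely by LYZ, at 11.73 and 12.39 in the parental and between 12.40 and 12.46 in the resistant libraries. In Kuramochi, where CD274 and PDCD1LG2 rose, the myeloid markers CD68 and ITGAM rose by 2.79 and 2.70, PTPRC was 2.98 on average in parental and 1.93 in resistant libraries, and the summed level went from between 7.68 and 8.12 to between 8.29 and 8.46. In EFO-21, where VTCN1 fell, 4 of the 10 were called lower (7.15% of all genes), NCAM1 by 2.99, CD3D by 2.54, LYZ by 1.76 and CD14 by 1.69. CD68 rose there by 1.28. The summed level went from between 9.58 and 9.67 to between 9.93 and 10.04, carried in the resistant libraries largely by CD68. The part of these markers in the changes of LGALS9, VTCN1, CD274 and PDCD1LG2 was not tested.

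**Figure D4:**
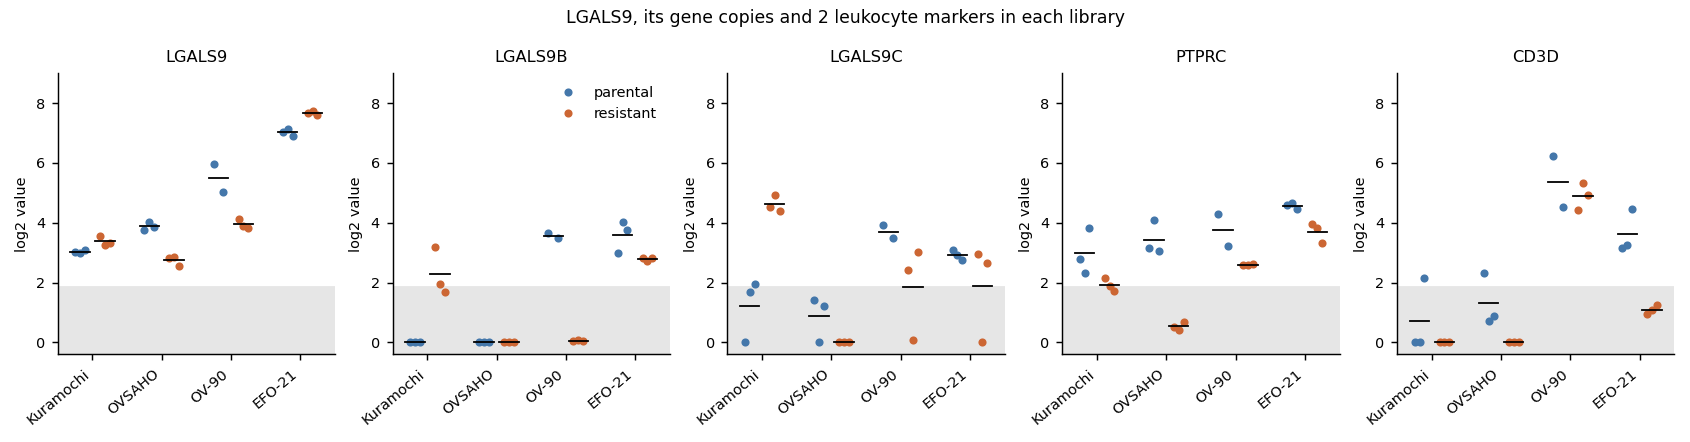
Deposited log2 value (vertical axes) of LGALS9, its gene copies LGALS9B and LGALS9C and the leukocyte markers PTPRC and CD3D in each library, by line, with parental libraries in blue, resistant libraries in orange and black bars for group means. The grey band ends at 1.87, and PTPRC in OVSAHO drops into it from a mean of 3.43 to 0.55.

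CD47 was lower in all 4 resistant forms, under 2-fold in each with all libraries. It fell by 0.90 ± 0.08 in Kuramochi (adjusted p = 0.000276), from 8.37, 8.53 and 8.57 to 7.55, 7.56 and 7.67. In OV-90 it fell by 0.96 ± 0.11 (adjusted p = 0.0122), from 8.21 and 7.94 to 7.14, 7.16 and 7.03. In EFO-21 it fell by 0.47 ± 0.06 (adjusted p = 0.00168), from 7.93, 7.96 and 7.91 to 7.34, 7.54 and 7.50. Without parental library 3 the fall in OV-90 was 1.10, past 2-fold. Over the single omissions there the change ran from -1.10 to -0.83, and its adjusted p did not pass in every one. OVSAHO went from 8.16, 8.17 and 8.27 to 8.03, 8.07 and 8.09, a difference of -0.14 ± 0.04 that did not pass (adjusted p = 0.0572). The resistant libraries lay below the parental ones in every line, and the share of all genes with such a pattern was not counted. The change in OVSAHO was less negative than the mean of the other 3 by 0.64 ± 0.09 (adjusted p = 1.8e-05). SIRPA, the receptor of CD47, rose in OVSAHO by 1.30. In OV-90 it was higher by 2.42, but from a parental mean of 1.55 at the bottom, so this is not a measured fold change. With 8 measured genes in the receptor list, the other called ones were CD226 (1.45) and LAG3 (-1.07) in Kuramochi and TNFRSF9 (-1.40) and LAG3 (-1.14) in OV-90, and EFO-21 had none by limma (2 higher by unadjusted p under 0.05).

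IDO1 rose from the bottom in OVSAHO. Its parental values of 1.38, 1.17 and 1.04 became 3.88, 4.18 and 3.99 (adjusted p = 0.000298), and since the parental libraries lay at the bottom, the difference of 2.82 ± 0.18 is not a measured fold change. In EFO-21, the line with high IDO1 at baseline, it rose by 0.97 ± 0.08 (adjusted p = 0.000248), from 8.16, 8.34 and 8.05 to 9.15, 9.18 and 9.14, just under 2-fold, and it passed 2-fold without library 11 (1.05). In Kuramochi and OV-90 it was at the bottom in both forms. The change in OVSAHO exceeded the mean of the others by 2.24 ± 0.26 (adjusted p = 3e-06).

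Other genes of tryptophan breakdown and AHR signalling were called in both directions in every line but OVSAHO. Of the 20 measured, Kuramochi had 6 called higher and 4 lower (11.8% and 10.6% of all genes) and OVSAHO 1 and 0 (3.93% and 3.83%). OV-90 had 4 and 2 (9.5% and 6.56%), and EFO-21 3 and 3 (7.11% and 7.15%). With 20 genes, these counts are a description. TDO2, which catalyses the same step as IDO1, rose by 3.04 in OV-90 (adjusted p = 0.00673), together with AHR (2.30) and the AHR targets CYP1A1 (2.59) and TIPARP (1.27). In Kuramochi CYP1A1 rose by 2.93 from the bottom (parental mean 1.07) and IDO2 by 2.35 from near 0. SLC7A5, a tryptophan and kynurenine transporter, rose there by 1.76, while IL4I1 fell by 1.76. In EFO-21 KYNU, which cleaves kynurenine, rose by 2.71 and IDO2 by 1.94, while KMO, which hydroxylates it, fell by 3.00 and IL4I1 by 1.32. The gene called in OVSAHO was CYP1B1 (1.04), where 3 were lower by unadjusted limma p under 0.05.

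NT5E rose in 3 lines and fell in the fourth. In Kuramochi it went from 7.14, 7.08 and 6.92 to 9.94, 10.07 and 9.78, a rise of 2.89 ± 0.10 or 7.39-fold (adjusted p = 1.14e-05). In OVSAHO it rose by 1.63 ± 0.23 (adjusted p = 0.00394), from 3.34, 3.01 and 2.60 to 4.45, 4.65 and 4.74. In OV-90 it rose by 1.71 ± 0.24 (adjusted p = 0.0155), from 5.0 and 5.68 to 7.14, 6.92 and 7.08. In EFO-21, the highest line at baseline, it fell by 0.75 ± 0.03 (adjusted p = 4.47e-05), from 10.18, 10.14 and 10.10 to 9.37, 9.36 and 9.43, under 2-fold. No pair of forms overlapped, and the change in EFO-21 lay 2.83 ± 0.19 below the mean of the other 3 lines (adjusted p = 1.52e-09). The OV-90 rise lost its call without any 1 of the 3 resistant libraries (adjusted p from 0.0668 to 0.0805).

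Of 17 other measured adenosine genes, Kuramochi had 3 called higher and 5 lower (11.8% and 10.6% of all genes) and EFO-21 3 and 3 (7.11% and 7.15%). OV-90 had 3 and 1 (9.5% and 6.56%). OVSAHO had 2 and 0 (3.93% and 3.83%), with 4 lower by unadjusted limma p under 0.05. These counts are a description. In Kuramochi the adenosine receptor gene ADORA2B rose by 3.44 (limma adjusted p = 3.87e-05). ALPL and ACP3, phosphatases that also release adenosine from AMP, fell there by 3.68 and 3.06, ACP3 to a mean of 1.72 near the bottom. The transporter SLC29A2 fell by 2.06. In OVSAHO ENTPD1 (CD39), which makes the AMP that NT5E uses, rose by 1.14 and ACP3 by 1.80. In OV-90 ADA2, an adenosine deaminase, went from the bottom at 0.20 to 4.15, which is not a measured fold change. SLC28A3 rose there by 1.65 and ACP3 by 1.53, while ADORA2B fell by 1.46. In EFO-21 ADA2 fell by 5.95 (limma adjusted p = 5.64e-05) and ENTPD1 by 2.81, the latter to the bottom (mean 1.55). ADORA2A fell there by 1.67, while ENTPD2 rose by 2.31.

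**Figure D5:**
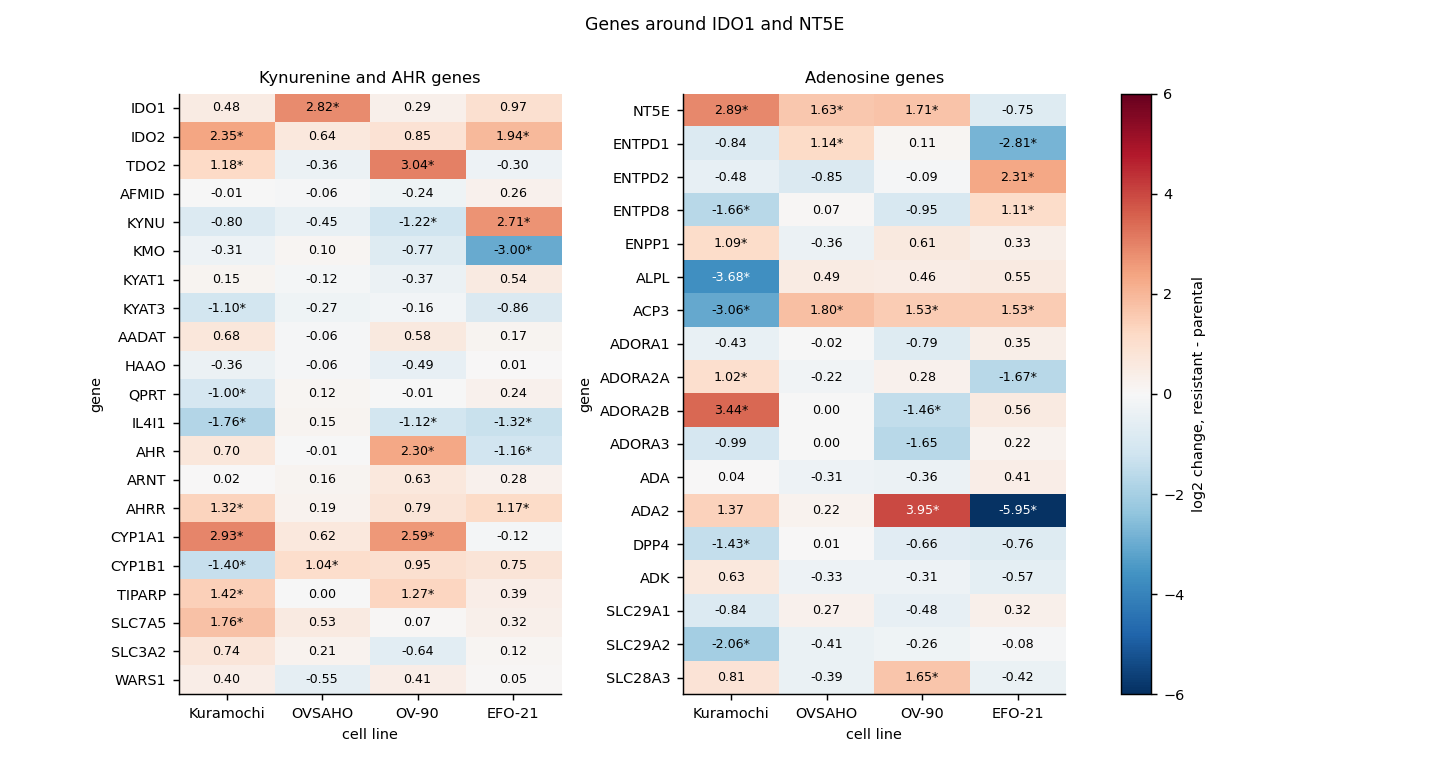
Log2 change from parental to resistant (colour and printed value) in each line, with IDO1 above 20 kynurenine and AHR genes on the left and NT5E above 17 adenosine genes on the right, and asterisks for called changes. The largest printed changes are ADA2 in EFO-21 (-5.95) and in OV-90 (3.95), the latter from a parental mean of 0.20 at the bottom.

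NT5E is also expressed by stromal cells, and stromal markers moved in these cultures. In OVSAHO LUM rose by 4.73 and DCN by 4.22 while COL1A1 fell by 1.54, and the summed level of the 7 stromal markers went from between 5.10 and 5.43 to between 7.53 and 7.82. In Kuramochi it went from between 7.35 and 7.52 to between 8.24 and 8.32, with 3 of the 7 called higher and 3 lower (11.8% and 10.6% of all genes). In OV-90 it was 12.4 to 13.3 in parental and 12.1 to 12.2 in resistant libraries, and in EFO-21 none was called by limma (2 higher by unadjusted p under 0.05). Epithelial markers fell alongside. In Kuramochi 6 of 8 were called lower (10.6% of all genes), EPCAM by 3.79 and KRT19 by 3.96. In OVSAHO it was 4 of 8 (3.83% of all genes), MUC16 by 4.58 and EPCAM by 3.01. OV-90 had none called by limma (3 lower by unadjusted p under 0.05), and in EFO-21 CDH1 rose by 1.39, while 5 of 8 were lower by unadjusted p under 0.05, all under 2-fold, and the summed level went from between 13.36 and 13.42 to between 12.83 and 12.88. The part of these markers in the changes of NT5E, CD274 or IDO1 was not tested.

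Among 26 other costimulatory and inhibitory ligands, Kuramochi had 7 called higher and 2 lower, OVSAHO 0 (4 by unadjusted limma p under 0.05) and 4, OV-90 2 and 5, and EFO-21 2 and 2. In Kuramochi CD70, the ligand of CD27, rose by 4.34 (adjusted p = 2.82e-05), LGALS3 by 2.24 and TNFSF9, the ligand of 4-1BB, by 1.94, while IGSF11, a ligand of VISTA, fell by 3.15. In OVSAHO CADM1 (-2.04), IGSF11 (-1.45), TNFSF4 (-1.43) and CD200 (-1.35) were lower. The resistant means of IGSF11 were 1.74 in Kuramochi and 1.71 in OVSAHO, so neither of its falls is a measured fold change. In OV-90 CEACAM1 (-1.94), NECTIN1 (-1.60) and LGALS1 (-1.24) were lower and CADM1 (1.37) higher. In EFO-21 CD200 (-1.76) and ICAM1 (-1.29) were lower and NECTIN4 (1.19) and CADM1 (1.10) higher. Over the 124 measured genes of these lists, cell type markers and LGALS9 copies left out, 21 were called higher and 16 lower in Kuramochi (11.8% and 10.6% of all genes), 5 and 8 in OVSAHO (3.93% and 3.83%), 13 and 11 in OV-90 (9.5% and 6.56%), and 12 and 12 in EFO-21 (7.11% and 7.15%). These counts are a description and do not set the lists apart from other genes.

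Across the 8 group means, the genes whose pattern was most like a ligand's were PIP4K2A for CD274 (Pearson r = 0.994), PPP1R18 for PDCD1LG2 (0.976), TBCCD1 for IDO1 (0.991), COILP1 for VTCN1 (0.964) and EMC1 for CD276 (0.992). For PVR it was GRIN2D (0.993), for NECTIN2 TGFB3 (0.990), for LGALS9 MRPL10 (0.985) and for NT5E MAP4K4 (0.988). CD47 spanned too little for such a comparison, at 1.38. Each r rests on 8 points that share lines, and 16711 genes were compared. Between ligands, CD274 and PDCD1LG2 had the highest r, 0.87, in which Kuramochi supplies the high points.

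A test of equal change in the 4 lines was passed by 10 of 10 ligands (limma F test), but 75.1% of all genes passed it as well.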

How the data were processed

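The authors sequenced stranded mRNA libraries made from total RNA of parental and prexasertib resistant cultures. Per the study's methods, reads were aligned to GRCh37/hg19, exons with few reads were excluded, exon and junction reads were combined per gene by a robust linear model (16448 genes; 5210 are marked as mean log2 exon values), and the result was quantile normalized. The deposited values are log2. No counts were given, so depth is unknown, its number of reads sets no interval here, and errors are those between libraries. Column names carry the line and form but no replicate number, and 0 columns belonged to no sample. Per the study, the libraries are from replicate cultures.

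Genes were named by NCBI Gene ID (20745 of 21658). Each line was fitted alone with limma 3.58.1 (R 4.3.3; lmFit, eBayes with trend; no pseudocount or filter), two-sided, Benjamini-Hochberg adjusted over all genes, and called at adjusted p under 0.05 and 2-fold. Parental lines were compared in 1 fit of 11 libraries, and differences between lines in a fit of 8 group means. An exact permutation test could not go below p = 0.1, so none is given. The code was tested on simulated data. Alternatives were a joint fit, no trend, a low-mean filter (25th percentile), values floored at the 10th percentile, recentring, library weights, other fold thresholds and leaving out each library. Outside the 10 ligands, genes named are at most the 4 largest called changes per list and line, and the 1 to 3 genes of most similar pattern. Others, given for context (PLGRKT, RIC1, IRF1, IFIT1, PTPRC, CD3D, KRT8, PAX8, WT1, LYZ, LUM, NCAM1, and CD68 in EFO-21), were picked after their values were seen. The ligands and lists were chosen with earlier results of these data known. CD80, CD86, PDCD1, CTLA4, TIGIT and other listed genes without a row were not analysed here. Positions are from GENCODE v44 lifted to GRCh37 and promoters from RefSeq (GRCh38.p14).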

Additional observations from a re-analysis of the deposited data

Results flagged for a closer look

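The changes of all 10 ligands differed among the 4 lines in a limma F test, adjusted over all genes, which 75.1% of all genes also passed. Adjusted p was 1.71e-09 for NT5E, 2.27e-07 for NECTIN2, 1.13e-06 for LGALS9, 4.3e-06 for IDO1 and 5.23e-06 for CD47. It was 8.00e-06 for CD276, 8.12e-06 for VTCN1, 1.04e-05 for PDCD1LG2, 0.00121 for CD274 and 0.0239 for PVR. NT5E had the smallest adjusted p, with rises of 1.63 to 2.89 in 3 lines and a fall of 0.75 in EFO-21. For PDCD1LG2, OVSAHO lay 3.68 ± 0.64 below the mean of the others (adjusted p = 0.00025), although most of its libraries were at the bottom. Groups of 2 or 3 libraries are too small for a test of single outlying libraries.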

How the results depend on the processing

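No paired analysis was possible because the columns carry no replicate number. All values below come from limma. Of 458 recomputed changes of single ligands between the forms, 436 kept their direction and their side of the threshold, and of 1002 recomputed differences between parental lines, 987 did. The count of 37 called parental differences stayed within 1.5 times, and the test of equal change was passed by 10 of 10 ligands under every alternative run but the low-mean filter, where it was passed by 7 of the 7 tested. At a 1.5-fold threshold the ligands called numbered 5 in OV-90 and 4 in EFO-21, and the related genes 60 in Kuramochi, 22 in OVSAHO and 43 in OV-90. With no fold threshold the ligands called were 5 in Kuramochi, 6 in OV-90 and 6 in EFO-21, and the related genes 71, 48 in OVSAHO, 48 in OV-90 and 68 in EFO-21. Over all genes the count in Kuramochi went from 4864 to 3006 under the low-mean filter and 10158 with no fold threshold. The low-mean filter removed IDO1, VTCN1 and PDCD1LG2 from the test, which left 2 ligands called in OVSAHO and 0 in EFO-21 (4 of 7 had an unadjusted p under 0.05). Library weights gave 12 related genes in OV-90, where the call of LGALS9 was lost, 2 ligands in EFO-21, where IDO1 passed 2-fold at 1.002, and no call for CD274 between parental OVSAHO and OV-90 (adjusted p = 0.103).

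Leaving out each library in turn gave 1 to 5 ligands and 2 to 35 related genes called in OV-90 (309 to 5975 over all genes) and 1 to 2 ligands in EFO-21. Without parental library 2 or 3, OV-90 has a lone parental library, whose spread is taken from the others. Signs turned only where no call was made: the change of CD274 in OV-90 (-0.20 to 0.31, and -0.001 under weights), IDO1 there (-0.064 to 0.64, and 0.000 with floored values), VTCN1 there (-0.39 to 0.21), NECTIN2 in OVSAHO (-0.008 to 0.017), and VTCN1 in Kuramochi with floored values (0.055). Among parental differences these were CD276, Kuramochi minus OV-90 (-0.32 to 0.10), IDO1, OVSAHO minus OV-90 (-0.37 to 0.34), CD47, OVSAHO minus OV-90 (-0.012 to 0.26), PVR, OV-90 minus EFO-21 (-0.19 to 0.13), and PDCD1LG2, OVSAHO minus EFO-21 (-0.53 to 0.71, and -0.063 with floored values). The causes were not tested. Without read counts, low values such as those of PDCD1LG2 and IDO1 cannot be given a detection limit.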
